A study of Mus musculus with 30 samples.

Results

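RNA of HPC7 cells carrying STAT3 Y640F was compared with RNA of HPC7 cells carrying an empty vector. HPC7 is a mouse haematopoietic progenitor line that grows in stem cell factor. The libraries were chosen by their titles, 3 for Y640F and 3 for the empty vector, which makes 6 of the 18 RNA libraries and of the 30 samples in the series. All cells were transduced with a retroviral vector. The empty vector group carried a dsRed vector, the Y640F group carried the mutant STAT3, and a further HPC7 group of 3 libraries carried unmutated STAT3. The HPC7 RNA samples bear the strain label 129SV, were cultured in Iscove's medium with serum and stem cell factor, and received no treatment. The other line used below, HPCLSK, bears the label C57BL/6N and was kept on agarose-coated plates in the same medium. The 12 chromatin samples were not analysed here. Per the series text the 3 libraries of a group were technical replicates, so the errors and p-values below measure the spread between these libraries, which may be technical. The labels do not say whether the transduced cells were pools or clones.

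STAT3 is a transcription factor that cytokine receptors activate through Janus kinases. Phosphorylated STAT3 pairs through its SH2 domain, enters the nucleus and binds palindromic sites near genes such as Socs3, whose product shuts the receptor off again. Y640F replaces a tyrosine in the SH2 domain and is known from lymphoid leukaemias as a change that keeps STAT3 active. The same kinases also serve interferon receptors, where STAT2 and IRF9 take part in switching on antiviral genes through a repeated GAAA element.

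The HPC7 libraries held 23127740 to 38556669 counts, so that 3 counts in 1 library were worth 0.0778 to 0.13 CPM (CPM being the count relative to the TMM-adjusted library total, the usual depth-scaled unit). The empty vector libraries differed from each other more than those of the other groups, and the chi-square between 2 libraries, divided by its degrees of freedom, was 10.29 to 20.19 against 3.21 to 4.49 for Y640F and 3.17 to 3.99 for STAT3. Over genes of at least 5 CPM, the median coefficient of variation was 5.79% in the empty vector group and 3.3% in the Y640F group. Mitochondrial genes held 1.898 to 3.188% of the counts with empty vector and 2.281 to 2.726% with Y640F. All 13 markers of stem and progenitor cells, such as Kit, Gata2 and Runx1, were detected, with a summed level of 3100 to 3260 CPM with empty vector and 3750 to 3810 CPM with Y640F. Kit led this sum, at 1240 to 1320 CPM with empty vector and 1560 to 1640 CPM with Y640F. Ptprc, Erg, Fli1, Runx1 and Lhx2 stood lower with Y640F, and the other markers of this sum higher. Markers of fibroblasts, B cells and T or NK cells summed to at most 0.46 CPM in each of the 9 HPC7 libraries. Marker sums with empty vector and with Y640F were 332 to 387 and 358 to 373 CPM for platelets, 326 to 463 and 446 to 459 CPM for mast cells, 405 to 481 and 469 to 486 CPM for endothelium, 8.57 to 10.7 and 6.4 to 9.68 CPM for macrophages, and 20.9 to 22.5 and 20.1 to 27 CPM for red cells. The neutrophil markers summed to 3.38 to 7.36 CPM with empty vector and 1.41 to 1.53 CPM with Y640F. Single genes made up most of several sums in these libraries. Cpa3 held 326 to 463 CPM of the mast cell sum, while Fcer1a had 0 CPM and Mcpt4 at most 0.086 CPM. Tie1, at 299 to 379 CPM, led the endothelium sum, followed by Pecam1, while Cldn5 had 0 CPM and Cdh5 at most 2.28 CPM. Itga2b led the platelet sum at 209 to 257 CPM, and Ltf the neutrophil sum. The part of these cells in the results below was not tested.

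The promoters of 4 genes that were higher with Y640F are shown because they carry the elements of the STAT and interferon pathways described above. They come from RefSeq on build GRCm38.p6, run from 250 bases before to 50 after the annotated start, and are written 5′ to 3′ on the minus strand, on which all 4 genes lie. Capitals mark the element. For Socs3 (chr11:117969317-117969616) and for Csf2rb2, a receptor subunit gene (chr15:78305672-78305971), it is the STAT palindrome TTCNNNGAA, which begins 154 and 15 bases before the start. For Isg15, the gene of a ubiquitin-like antiviral protein (chr4:156200769-156201068), it is the interferon-response repeat, GAAA, any 2 bases and GAAA again, in 3 overlapping copies from 78 bases before the start. For Oas3, the gene of an enzyme that senses double-stranded RNA (chr5:120777610-120777909), it is 1 copy of that repeat, 75 bases before the start.
Socs3: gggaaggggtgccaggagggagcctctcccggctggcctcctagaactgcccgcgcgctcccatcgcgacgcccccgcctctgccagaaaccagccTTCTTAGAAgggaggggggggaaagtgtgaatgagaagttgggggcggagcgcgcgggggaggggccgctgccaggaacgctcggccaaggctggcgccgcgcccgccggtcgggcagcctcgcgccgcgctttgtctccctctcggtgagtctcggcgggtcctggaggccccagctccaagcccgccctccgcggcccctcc
Csf2rb2: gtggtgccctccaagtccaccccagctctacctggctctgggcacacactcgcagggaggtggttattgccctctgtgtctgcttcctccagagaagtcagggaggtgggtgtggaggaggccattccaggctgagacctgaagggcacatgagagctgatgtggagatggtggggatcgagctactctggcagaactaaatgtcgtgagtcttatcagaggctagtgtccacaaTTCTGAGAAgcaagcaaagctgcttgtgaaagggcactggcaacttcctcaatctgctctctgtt
Isg15: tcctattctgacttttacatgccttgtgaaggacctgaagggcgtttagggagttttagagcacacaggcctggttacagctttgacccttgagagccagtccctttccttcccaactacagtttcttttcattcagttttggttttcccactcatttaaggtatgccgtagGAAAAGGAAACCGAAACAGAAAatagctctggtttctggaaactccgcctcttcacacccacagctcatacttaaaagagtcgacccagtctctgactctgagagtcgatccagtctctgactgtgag
Oas3: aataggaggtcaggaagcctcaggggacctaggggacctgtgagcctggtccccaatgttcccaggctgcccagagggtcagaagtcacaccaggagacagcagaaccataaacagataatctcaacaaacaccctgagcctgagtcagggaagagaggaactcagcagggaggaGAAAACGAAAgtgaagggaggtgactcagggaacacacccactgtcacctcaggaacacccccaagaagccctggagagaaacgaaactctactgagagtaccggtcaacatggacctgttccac

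Searched on both strands, the STAT palindrome stood in 8.3% of all 32851 promoters of the table and the interferon-response repeat in 3.44%. Of the tested genes, 9173 of 12683 had a promoter in the table, and 8.22% of those held the palindrome and 3.61% the repeat in at least 1 promoter. Among the genes called higher with Y640F that were matched (418 of 576), 8.13% held the palindrome and 7.18% the repeat. Among those called lower (310 of 462), the shares were 8.39% and 3.87%. For the interferon-stimulated genes called higher, 16 of 19 were matched and 9 of the 16 held the repeat, as did 14 of the 31 matched genes among all tested members of that list. For the STAT3 target genes called higher, 8 of 9 were matched and 2 held the palindrome. A match describes the letters in this window only.

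With Y640F, HPC7 cells held more RNA of the beta chain genes of the interleukin-3 receptor family and of part of the STAT3 targets (9 of 31). They also held more RNA of part of the antiviral interferon-stimulated genes (19 of 40) and of the red cell genes (15 of 34, with 2 lower). They held less RNA of 8 of 15 granulocyte genes, of several stem and progenitor genes including Cd34 and Hlf, and of single genes in many pathways that were close to absent, among them H2-K1, Pycard and Cxcr4. Of 12683 genes tested, 576 were called higher (4.54%) and 462 lower (3.64%), together 8.18%, where a call required both a 2-fold difference and an adjusted p below 0.05 (edgeR's quasi-likelihood test with Benjamini-Hochberg adjustment). The lower calls were the larger ones. Their median absolute log2 fold change was 1.69, against 1.42 for the higher calls, and 71 of the lower calls but 20 of the higher calls passed a fold of 16. The levels of the 3 and 3 libraries did not overlap for 568 of the higher and 453 of the lower calls, where 61.2% of all tested genes did not overlap. Most calls were of genes at low levels, since 244 of the higher and 186 of the lower calls passed 5 CPM in the group where they were high. At a filter of 5 CPM in 3 libraries, 245 genes were higher and 170 lower. Without the fold minimum, 3742 were higher and 3521 lower.

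**Figure D1:**
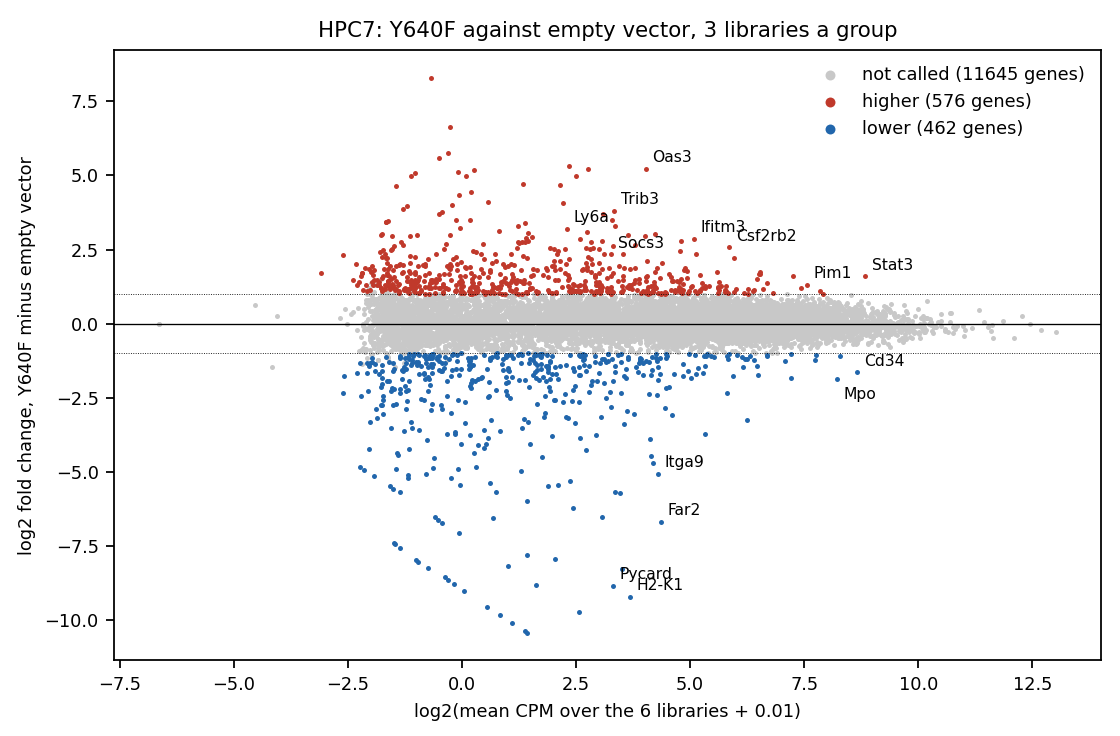
Log2 fold change (Y640F minus empty vector) of each tested gene against log2 of the mean CPM over the 6 libraries, with the 576 higher calls in red, the 462 lower calls in blue and dotted lines at a fold of 2. The lower calls reach further from 0 than the higher calls, down to a fitted value of -10.42.

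Stat3 itself was the first check. The empty vector libraries held 227, 237 and 217 CPM of Stat3 and the Y640F libraries 706, 671 and 676 CPM, a log2 fold change of 1.59 ± 0.04 (SE; adjusted p = 1.8e-11). The groups lay far apart, and the STAT3 group stood higher still at a mean of 1005 CPM. Transcripts of the vector and of the endogenous gene on chromosome 11 are counted together here, and the changed residue is not visible in such counts.

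The STAT3 targets and feedback genes rose more often than they fell. Of 31 tested, 9 were higher, 1 was lower, and the median log2 fold change was 0.54, where that of all tested genes was 0. The share called was 32.3%, against 8.18% of all tested genes. Socs3, the feedback inhibitor, held 3.50, 3.35 and 2.75 CPM with empty vector and 16.6, 15.3 and 16.2 CPM with Y640F (log2 fold change 2.34 ± 0.10, adjusted p = 9.9e-10). All Y640F libraries were high and close together. Cish, the inhibitor tied mainly to STAT5, rose less, from 4.2, 5.03 and 4.39 CPM to 8.60, 10.4 and 10.1 CPM (1.10 ± 0.11, adjusted p = 1.1e-06). The kinase genes Pim1 and Pim2, which promote survival and growth, both rose. Pim1 held 105, 114 and 105 CPM with empty vector and 285, 253 and 269 CPM with Y640F (1.32 ± 0.05, adjusted p = 3.3e-10). Pim2 held 44.1, 46.4 and 41.2 CPM and then 150, 131 and 137 CPM (1.67 ± 0.06, adjusted p = 1.3e-10). Neither gene had a library of one group within the range of the other. Bcl3, an atypical inhibitor of kappa B that acts in the nucleus, went from 5.50, 6.62 and 5.12 CPM to 15.1, 12.3 and 13.1 CPM (1.24 ± 0.12, adjusted p = 1.3e-06). Gadd45g, a growth arrest gene, rose from a mean of 2.27 to 6.23 CPM. The cytokine genes Il10 and Lif rose at low levels, Il10 from a mean of 0.214 to 1.12 CPM and Lif from 0.211 to 0.872 CPM. Vegfa, an angiogenic factor gene, was the member that fell, from a mean of 0.504 to 0.137 CPM.

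The anti-apoptotic gene Bcl2l1 was the ninth member called higher, and it stood at the edge of the call. It held 159, 166 and 157 CPM with empty vector and 341, 312 and 318 CPM with Y640F (log2 fold change 1.01 ± 0.04, adjusted p = 4.5e-10). The groups were well apart, but the value was 0.99 without the third empty vector library, 0.98 without the first Y640F library and 0.54 relative to the median of its chromosome, chromosome 2, which is described below. Members that did not pass the fold minimum included the survival gene Mcl1 with a log2 fold change of 0.03, the growth regulator Myc with 0.06, the AP-1 gene Junb with 0.93 and the cyclin gene Ccnd2 with -0.36.

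The share of JAK-STAT components that was called, 8.33%, lay near the 8.18% of all tested genes. Of 24 JAK-STAT components tested, Stat3 was called higher, Stat4 was called lower, and 22 were not called. By the adjusted p alone, without the fold minimum, 11 were higher and 5 lower. Over all 12683 tested genes, 3742 were higher and 3521 lower by that measure. Stat4, which serves interleukin-12 and type I interferon receptors, held 19.6, 19.2 and 15.5 CPM with empty vector and 5.70, 5.24 and 5.12 CPM with Y640F (-1.75 ± 0.11, adjusted p = 2.7e-08), with no overlap of the groups. The kinase genes had log2 fold changes of -0.62 for Jak1, 0.57 for Jak2 and 0.24 for Jak3. Stat2 stood at 0.66.

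Among cytokine receptors the strongest increase was in Csf2rb2 and Csf2rb. Csf2rb encodes the beta chain through which interleukin-3, interleukin-5 and GM-CSF signal, and Csf2rb2 a beta chain that serves interleukin-3. Both genes lie next to each other on chromosome 15. Csf2rb2 held 17.7, 18.1 and 14.3 CPM with empty vector and 97.0, 92.1 and 107 CPM with Y640F (2.58 ± 0.09, adjusted p = 1.1e-10). Csf2rb held 60.8, 59.5 and 52.0 CPM and then 148, 138 and 154 CPM (1.36 ± 0.06, adjusted p = 1.2e-09). The levels of both genes in the Y640F libraries lay above all empty vector libraries. The genes are close copies, so reads that fit both may be divided unevenly between them. Of 26 receptor genes tested, 3 were higher and 5 lower, with a median log2 fold change of 0.04. The third gene called higher was Il1rl1, the interleukin-33 receptor gene, with means of 51.5 and 104 CPM (1.01 ± 0.08). The alpha chain gene Il5ra, whose product pairs with that of Csf2rb, fell from a mean of 9.84 to 3.27 CPM. Csf3r, the receptor of G-CSF, held 37.3, 53.8 and 41.1 CPM with empty vector and 12.97, 12.4 and 13.3 CPM with Y640F (-1.77 ± 0.11, adjusted p = 1.9e-08). Flt3, the receptor of early lymphoid and myeloid progenitors, fell from a mean of 2.18 to 0.734 CPM, and Il15ra from 0.819 to 0.0786 CPM. Il10ra, the interleukin-10 receptor gene, had 265 counts with empty vector and 3 with Y640F, a ratio of 108 (95% counting interval 36.7 to 529). At 5 CPM in 3 libraries, 2 of these receptor genes were called lower.

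**Figure D2:**
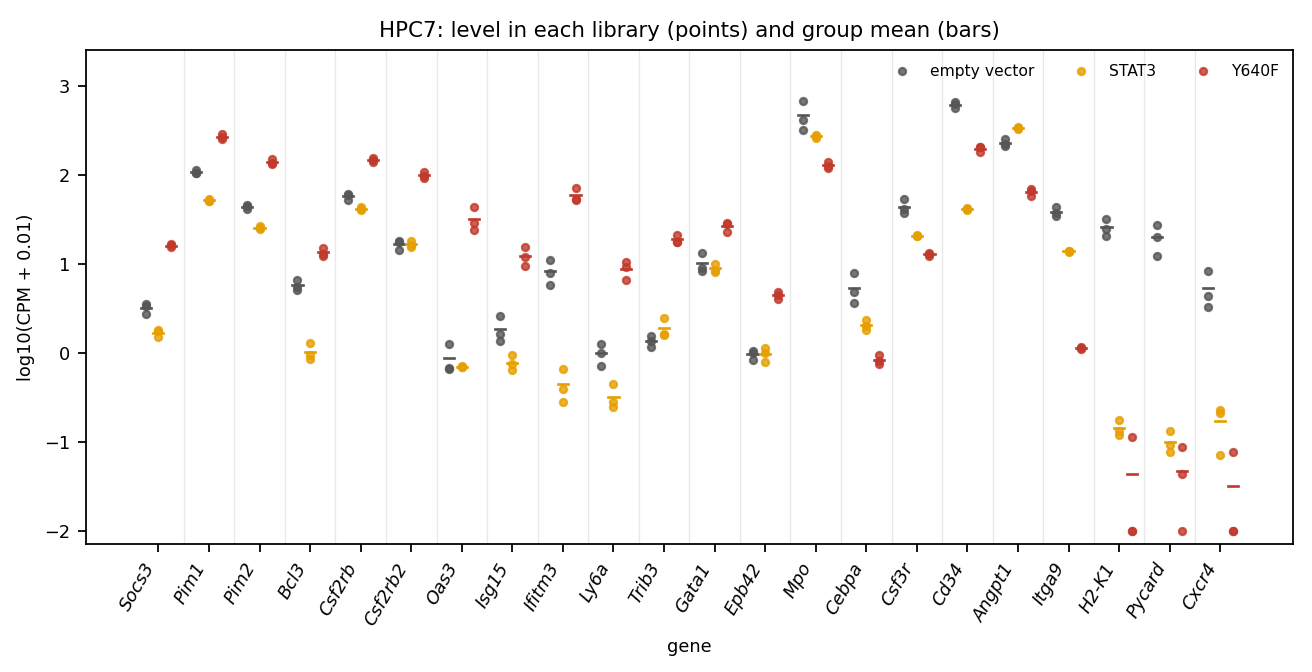
Level of 22 genes named in the text in each of the 9 HPC7 libraries, as log10 of CPM + 0.01, with empty vector in grey, STAT3 in orange and Y640F in red, points for libraries and bars for group means. Genes from Socs3 to Epb42 have their Y640F points above the empty vector points, and genes from Mpo to Cxcr4 have them below.

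Interferon-stimulated genes formed the most one-sided list. Of 40 tested, 19 were higher with Y640F and none was lower (47.5% called, against 8.18% of all tested genes). The median log2 fold change was 0.96. All 19 had Y640F libraries above every empty vector library, as had 568 of all 576 higher calls. Of all tested genes, 61.2% did not overlap between the groups. Oas3 held 1.26, 0.645 and 0.673 CPM with empty vector and 43.0, 23.8 and 28.4 CPM with Y640F (5.22 ± 0.27, adjusted p = 4.0e-09). Isg15 held 2.59, 1.63 and 1.35 CPM and then 15.6, 9.56 and 12.1 CPM (2.76 ± 0.22, adjusted p = 1.9e-07). In both genes the first Y640F library was the highest of its group, and this held for all 19 genes. The first and the second empty vector library shared the highest level of their group, with 11 and 8 genes, and the third was never highest. With any 1 of the 6 libraries left out, 19 or 20 members were called higher. Relative to the chromosome medians 19 were higher and 1 was lower.

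The other oligoadenylate synthetase genes moved with Oas3. Oas2 rose from a mean of 0.326 to 8.57 CPM, Oasl1 from 1.63 to 17.8 CPM, Oasl2 from 0.524 to 8.74 CPM and Oas1a from 0.164 to 2.78 CPM. These 5 genes lie on chromosome 5, whose median gene stood 0.33 higher, and relative to that median Oas3 kept a log2 fold change of 4.89. Genes of antiviral membrane proteins also rose. Ifitm3 held 5.74, 11.1 and 7.93 CPM with empty vector and 71.5, 52.0 and 54.0 CPM with Y640F (2.85 ± 0.17, adjusted p = 1.8e-08). Ifitm1 rose from a mean of 1.88 to 18.5 CPM and Bst2, the gene of tetherin, from 2.72 to 9.58 CPM. Rsad2, the gene of viperin, rose from 3.75 to 28.3 CPM and Ifit1 from 2.19 to 14.6 CPM. Irf9, the DNA-binding partner of STAT2, rose from a mean of 16.4 to 34.5 CPM, and Ddx58, the gene of the RNA sensor RIG-I, from 30.0 to 68.2 CPM. Rtp4, a gene of the antiviral response, had 2 counts with empty vector and 137 with Y640F, a ratio of 55.8 (15.2 to 466). Not every member moved: Ifit2 had a log2 fold change of 0.16, Usp18 of 0.49, Ifih1 of 0.10 and Eif2ak2 of 0.50. Several of the listed genes belong to families of similar copies (Oas, Ifit, Ifitm), and the counting could divide reads between copies.

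Genes that interferon-gamma mainly drives were a separate list. Of 13 tested, 2 were higher and 0 lower (15.4% called, against 8.18% of all tested genes), with a median of 0.14. The GTPase genes Gbp9 and Irgm2 were called, with means of 0.856 and 2.70 CPM for Gbp9 and 3.87 and 9.02 CPM for Irgm2. The transcription factor genes Irf1 and Irf8 had log2 fold changes of 0.08 and 0.14. Without the third empty vector library 4 members were called lower. The DNA sensor family genes Ifi203, Ifi204 and Mndal stood at -1, -0.89 and -0.93 with all libraries, short of a call, and lie on chromosome 1, where the median gene stood at -0.34.

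Antigen presentation was divided. H2-K1, a classical MHC class I heavy chain gene, was close to absent with Y640F: the empty vector libraries held 20.5, 31.9 and 24.5 CPM and the Y640F libraries 0, 0 and 0.102 CPM (fitted log2 fold change -9.21 ± 0.34, adjusted p = 2.55e-10). Its neighbour in function H2-D1 had a log2 fold change of -0.93, and B2m, the shared light chain gene, of -0.10. Nlrc5, the activator of class I genes, fell from 7.15, 10.8 and 9.51 CPM to 2.23, 1.2 and 1.13 CPM (-2.62 ± 0.23, adjusted p = 4.9e-07). No other of the 16 class I pathway genes tested was called, so that 12.5% were called, against 8.18% of all tested genes. In the class II pathway 3 of 8 genes were higher and 1 was lower (50% called, against 8.18% of all tested genes). Without the second or the third Y640F library 2 genes were lower. In a test against the fold minimum itself (glmTreat) none of the 8 was called. H2-DMa, part of the peptide loading factor, rose from a mean of 5.53 to 12.7 CPM, while H2-Ob, part of its inhibitor, fell from 24.5 to 11.3 CPM. H2-DMb1 stood at 1.08 and dropped under the fold minimum without the third empty vector library (0.95) or the second Y640F library (0.98).

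Pycard, the adaptor gene of inflammasomes, showed the same near absence. The empty vector libraries held 12.3, 27.2 and 19.96 CPM and the Y640F libraries 0.0333, 0 and 0.0768 CPM (fitted log2 fold change -8.84 ± 0.47, adjusted p = 5.4e-09). The spread among the empty vector libraries was wide, but none came near the Y640F range. Nlrc4, an inflammasome sensor gene, fell from 10.2, 11.7 and 12.5 CPM to 2.27, 2.24 and 2.51 CPM (-2.29 ± 0.11, adjusted p = 2.2e-09). Of 16 nucleic acid sensing and inflammasome genes, 1 was higher and 2 lower, and of 26 NF-kB and TNF signalling genes 1 was higher and 2 lower. The shares called were 18.8% and 11.5%, against 8.18% of all tested genes. The higher count of the sensing genes was 2 without the second empty vector or the second Y640F library, and the lower count of the NF-kB genes was 1 without the third empty vector or the third Y640F library. Traf1, a signalling adaptor gene and NF-kB target, rose from a mean of 0.379 to 2.35 CPM. The subunit genes Nfkb1 and Rela had log2 fold changes of -0.21 and -0.12.

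Chemokine genes and their receptors were called in both directions, 4 higher and 4 lower of 18 (44.4%, against 8.18% of all tested genes). Ccl5, which attracts T cells and is itself interferon-responsive, rose from a mean of 1.42 to 8.09 CPM. Ccr2, the receptor that brings monocytes out of the marrow, rose from 14.9 to 33.2 CPM. Ccl9 fell from 18.7 to 5.23 CPM. Cxcr4, the receptor that holds progenitors in the marrow, held 8.33, 3.27 and 4.36 CPM with empty vector and 0.0667, 0 and 0 CPM with Y640F. Over the groups that was 437 counts against 2, a ratio of 268 (73.8 to 2220).

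Among lineage genes, many of the red cell list rose and many of the granulocyte list fell. In bulk RNA, fewer cells of a type and less RNA per cell cannot be told apart. Of 34 erythroid genes tested, 15 were higher and 2 lower (50% called, against 8.18% of all tested genes). The median log2 fold change was 0.68. All 15 had no overlap between groups, as was the case for 568 of all 576 higher calls. Of the 15, 12 were highest in the third Y640F library. Gata1, the master regulator of the lineage, held 13.1, 8.34 and 9.07 CPM with empty vector and 22.8, 28.9 and 28.4 CPM with Y640F (1.40 ± 0.14, adjusted p = 1.9e-06). Its partner gene Klf1 held 3.42, 4.56 and 4.10 CPM and then 7.27, 9.72 and 9.22 CPM (1.12 ± 0.16, adjusted p = 4.4e-05). Membrane skeleton and blood group genes rose as well. Epb42, the gene of band 4.2, held 0.825, 1.03 and 0.995 CPM and then 4.07, 4.41 and 4.76 CPM (2.21 ± 0.17, adjusted p = 1.3e-07). Add2, the gene of beta adducin, rose from a mean of 2.83 to 11.5 CPM, Kel from 0.544 to 2.75 CPM and Rhag from 2.91 to 7.01 CPM.

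Of the globin genes, 3 were called at low levels, with Hba-a1 at means of 0.592 and 1.40 CPM, Hbb-bh1 at 0.446 and 1.66 CPM and Hbb-y at 0.101 and 0.573 CPM. The adult gene Hbb-bs had a log2 fold change of -0.17. The haem synthesis genes Alad, Urod and Fech stood between -0.05 and 0.36, and Tfrc, the transferrin receptor gene, at 0.07. The erythropoietin receptor gene Epor had 0.90. Bpgm, an enzyme gene of red cell metabolism, fell from a mean of 191 to 80.5 CPM, and Aqp1, the water channel gene, from 57 counts to 1. At 5 CPM in 3 libraries 7 members were called higher, and relative to the chromosome medians 15.

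The granulocyte list fell, with 8 of 15 genes lower, 1 higher and a median of -1.63. Of the 15, 60% were called, against 8.18% of all tested genes. Mpo, the myeloperoxidase gene, held 670, 417 and 319 CPM with empty vector and 139, 119 and 127 CPM with Y640F (-1.87 ± 0.19, adjusted p = 1.8e-06). Cebpa, the transcription factor gene that starts granulocyte differentiation, held 7.86, 4.77 and 3.60 CPM and then 0.934, 0.797 and 0.743 CPM (-2.70 ± 0.28, adjusted p = 2.3e-06). In both genes the empty vector libraries spread widely, the first being the highest, while the Y640F libraries lay close together. Cebpe, a later factor of the lineage, fell from a mean of 0.697 to 0.174 CPM, Hp, the haptoglobin gene, from 2.74 to 0.567 CPM, and Ltf, the lactoferrin gene, from 4.54 to 1.46 CPM. Prtn3, a granule protease gene, stood at 0.27 and Gfi1, a repressor of the monocyte programme, at -0.29. The lowest neutrophil marker sum with empty vector, 3.38 CPM, was above the highest with Y640F, 1.53 CPM. Most of that sum was Ltf, so it repeats the fall of that gene. At 5 CPM in 3 libraries 2 members were called lower.

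Stem and progenitor genes changed in both directions, with 8 of 29 lower and 2 higher and a median of -0.07. Of the 29, 34.5% were called, against 8.18% of all tested genes. Cd34 held 664, 623 and 558 CPM with empty vector and 207, 182 and 203 CPM with Y640F (-1.64 ± 0.06, adjusted p = 3.1e-10). Angpt1, the gene of a ligand of the Tie2 receptor, held 254, 212 and 225 CPM and then 58.5, 69.7 and 66.6 CPM (-1.83 ± 0.07, adjusted p = 3.3e-10). Cd48 fell from a mean of 139 to 41.6 CPM. Lhx2, the homeobox gene, fell from 8.998 to 2.73 CPM. Hlf, a transcription factor gene of stem cells, fell from 1.24 to 0.0477 CPM and Hoxa5 from 2.69 to 0.153 CPM. Ly6a, the gene of Sca-1, which interferon also raises, held 0.982, 1.25 and 0.703 CPM and then 10.5, 6.62 and 9.17 CPM (3.2 ± 0.22, adjusted p = 5.8e-08). Lmo2, the gene of a bridging protein in the Tal1 and Gata1 complex, rose from 88.8, 70.8 and 67.2 CPM to 210, 237 and 237 CPM (1.60 ± 0.08, adjusted p = 4.2e-09). Most core regulators were not called, among them Kit with 0.31, Gata2 with 0.46, Tal1 with 0.56, Runx1 with -0.42 and Meis1 with 0.02. At 5 CPM in 3 libraries 4 members were called lower.

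The remaining lineage lists held fewer tested genes. The shares called were 44.4% for the mast cell list, 23.8% for the megakaryocyte list and 37.5% for the monocyte list. They were 66.7% for the T and NK cell list and 40% for the stromal list, against 8.18% of all tested genes. Of 9 mast cell, basophil and eosinophil genes, 3 were higher and 1 lower. Mitf, a transcription factor gene of mast cells, rose from a mean of 2.62 to 7.54 CPM and Fcer1g, the Fc receptor gamma chain gene, from 53.2 to 114 CPM. Of 21 megakaryocyte and platelet genes, 3 were higher and 2 lower, and 1 was lower without the first or the third library of either group or with the replicate number as a block. Mmrn1, the gene of multimerin 1, fell from 21.4, 41.2 and 38.0 CPM to 2.13, 1.41 and 1.15 CPM (-4.45 ± 0.26, adjusted p = 1.2e-08), far from any overlap. The higher calls of this list, such as Clec1b at means of 0.578 and 1.2 CPM, dropped to 1 without the third empty vector library. Of 16 monocyte, macrophage and dendritic cell genes, 4 were higher and 2 lower, and F13a1, the gene of factor XIII, rose from 0.0503 to 1.82 CPM. Adgre1, the gene of F4/80, had means of 1.5 and 0.660 CPM, and its log2 fold change of -1.17 became -0.78 without the first empty vector library, and 1 member of the list was then called lower. Among T and NK cell genes, 3 of 9 were higher and 3 lower, with Prf1, the perforin gene, at 3.66 and 11.4 CPM. Ighm, the immunoglobulin mu gene, fell from 5.28 to 0.081 CPM. Among stromal and endothelial genes 2 of 5 were higher, one of them Cdh5, the VE-cadherin gene, at 0.381 and 2.07 CPM.

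**Figure D3:**
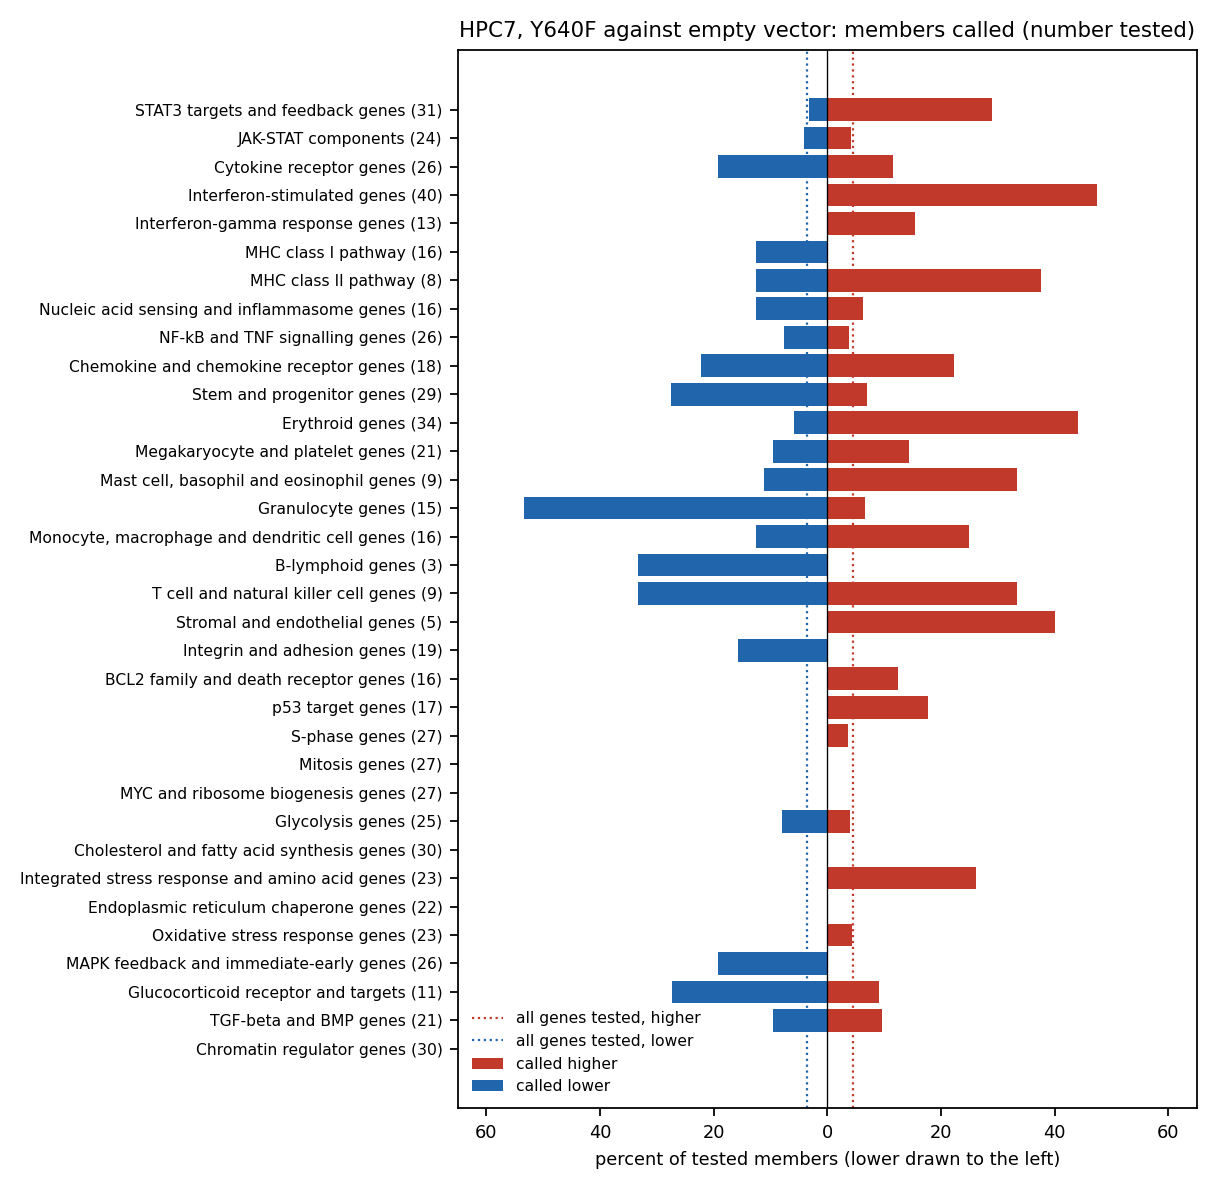
Percent of the tested members of each of 34 gene lists called higher (red, to the right) and lower (blue, to the left) with Y640F, with the number tested in brackets and dotted lines at the shares of all tested genes, 4.54% and 3.64%. The longest bar to the right is that of the interferon-stimulated genes (19 of 40) and the longest to the left that of the granulocyte genes (8 of 15).

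Some stress genes of the amino acid response rose, and no endoplasmic reticulum chaperone gene was called. Of 23 integrated stress response and amino acid genes, 6 were higher, none was lower and 17 were not called, with a median of 0.42. The share called was 26.1%, against 8.18% of all tested genes. Trib3, a pseudokinase gene that ATF4 induces, held 1.53, 1.16 and 1.35 CPM with empty vector and 21.2, 17.6 and 17.7 CPM with Y640F (3.79 ± 0.16, adjusted p = 4.8e-10). Slc6a9, a glycine transporter gene, held 1.14, 1.12 and 1.32 CPM and then 17.0, 15.9 and 14.7 CPM (3.71 ± 0.13, adjusted p = 1.3e-10). Ddit3, the gene of CHOP, rose from a mean of 8.14 to 24.4 CPM, Ddit4, an inhibitor gene of the mTOR pathway, from 4.65 to 15.1 CPM, and Sesn2 from 21.5 to 55.3 CPM. All 6 were highest in the first Y640F library. Atf4 itself had a log2 fold change of 0.35 and the serine synthesis gene Phgdh of -0.06. None of 22 chaperone genes was called by edgeR or DESeq2, with a median of -0.11 and Hspa5, the gene of BiP, at 0.18. At an unadjusted p under 0.05 (edgeR), 5 stood higher and 11 lower. Over all 12683 tested genes, 3742 were higher and 3521 lower by the adjusted p alone. The adjusted p is the stricter measure, so the chaperone numbers cannot be compared with these. Nfe2l2, the gene of the oxidative stress regulator NRF2, held means of 52.3 and 116 CPM. It was the 1 call among 23 oxidative stress genes (4.35%, against 8.18% of all tested genes). It lies on chromosome 2, and its log2 fold change of 1.15 was 0.68 relative to the median there.

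Several growth and metabolism lists held no call. None of 27 mitosis genes, 27 MYC and ribosome biogenesis genes, 30 cholesterol and fatty acid synthesis genes and 30 chromatin regulator genes was called, with medians of 0.02, 0.03, 0.28 and -0.11 (edgeR), and DESeq2 called none either. Differences under the fold minimum were common, in these lists and over all tested genes. By the adjusted p alone, 3742 of all 12683 genes were higher and 3521 lower. At an unadjusted p under 0.05 (edgeR), 12 mitosis genes stood higher and 7 lower. For the other lists the numbers were 12 and 8, 20 and 5, and 6 and 14. The unadjusted p is the looser measure, so the list numbers cannot be compared with the count over all genes. Of 27 S-phase genes only E2f2 was called (3.7%, against 8.18% of all), at means of 14.5 and 29.8 CPM. Without the third empty vector library E2f2 fell below the fold minimum. Of 17 p53 target genes 3 were higher (17.6%, against 4.54% of all tested genes), among them the cell cycle inhibitor gene Cdkn1a at 39.7 and 88.9 CPM, while Mdm2 stood at 0.07. The others called were Sesn2, given above with the stress genes, and Zmat3. Without the third empty vector library Zmat3 fell under the fold minimum, at 0.98. Bcl2l11, the gene of the pro-apoptotic protein BIM, held 10.6, 6.97 and 8.43 CPM with empty vector and 29.9, 27.9 and 29.4 CPM with Y640F (1.75 ± 0.11, adjusted p = 1.7e-08). With Bcl2l1, it made up the 2 calls among 16 genes of the BCL2 family and death receptors (12.5%), a number that was 1 without the third empty vector or the first Y640F library. Of 25 glycolysis genes 1 was higher and 2 lower (12% called, against 8.18% of all), with Eno2, the neuronal enolase gene, at 1.82 and 8.34 CPM and Aldoc, an aldolase gene, at 1.5 and 0.179 CPM.

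Of 26 MAPK feedback and immediate-early genes 5 were lower and none higher (19.2% called, against 8.18% of all tested genes). Without the second empty vector library 2 members were called higher, and without the first or the third empty vector or the second Y640F library 1 was. Spry2, an inhibitor gene of receptor tyrosine kinase signalling, fell from a mean of 15.6 to 4.14 CPM, the phosphatase gene Dusp5 from 4.10 to 1.08 CPM and the transcription factor gene Egr3 from 5.30 to 1.5 CPM. Dusp6, Egr1 and Spred1 stood at 0.94, 0.93 and 0.97 and were not called, and the median of the list was 0.18. Itga9, the integrin alpha 9 gene, held 37.0, 43.1 and 34.2 CPM with empty vector and 1.13, 1.16 and 1.10 CPM with Y640F (-5.06 ± 0.12, adjusted p = 4.1e-12). Itga2 fell from a mean of 8.88 to 1.85 CPM. Of 19 adhesion genes, 3 were lower and none was higher (15.8% called, against 8.18% of all tested genes).

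Nr3c1, the glucocorticoid receptor gene, had 517 counts with empty vector and 1 with Y640F, a ratio of 634 (113 to 25100). The list of the receptor and its targets gave 1 higher and 3 lower of 11 (36.4% called, against 8.18% of all tested genes). Nr3c1 was 1 of the 3. The metallothionein gene Mt1 had means of 10.6 and 26.2 CPM and the target gene Fkbp5 a log2 fold change of 0.06. Smad1, a signal carrier of BMP receptors, had 129 counts with empty vector and 0 with Y640F, at least 52.8-fold lower when 3 counts are set for the Y640F group as a whole. The BMP-responsive gene Id1 rose from a mean of 8.89 to 23.9 CPM and the activin receptor gene Acvr2a from 8.17 to 21.2 CPM. Both lie on chromosome 2, where their log2 fold changes relative to the chromosome median, 0.96 and 0.88, fell under the call.

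Outside the lists, large increases at 5 CPM or more were seen in genes of unrelated roles. Fscn1, the gene of the actin-bundling protein fascin, held 0.511, 0.258 and 0.293 CPM with empty vector and 13.9, 13.3 and 12.1 CPM with Y640F (5.21 ± 0.20, adjusted p = 3.3e-10). Stk32c, a kinase gene, rose from a mean of 0.332 to 10.9 CPM and Hpn, the gene of the protease hepsin, from 1.38 to 11.9 CPM.

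Loss to near 0 was frequent, and the reverse was rare. Of the genes lower with Y640F, 38 had at most 3 counts over all 3 Y640F libraries, 15 of them 0 counts. Of the genes higher with Y640F, 7 had at most 3 counts over the empty vector libraries, 1 of them 0. At a stricter cut, 10 genes had at least 5 CPM with empty vector and under 0.1 CPM with Y640F, and 0 genes had the opposite. The levels in the empty vector libraries varied for these genes. Zfp770, a zinc finger gene, held 2.51, 5.76 and 7.76 CPM with empty vector and 0 counts with Y640F, at least 189-fold lower. Laptm4b, a lysosomal membrane gene, held 3.93, 7.09 and 4.62 CPM and then 0 counts, at least 173-fold lower. Mier2, a chromatin-associated gene, went from 363 counts to 0, at least 148-fold lower, and Rbfox2, a splicing regulator gene, from 304 counts to 0, at least 124-fold lower.

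Other deep losses kept a few counts. Ppic, the gene of cyclophilin C, had 952 counts with empty vector and 1 with Y640F, a ratio of 1170 (209 to 46200). Dbt, a subunit gene of the branched-chain ketoacid dehydrogenase, held 18.4, 25.7 and 23.8 CPM and then 0.133, 0.0613 and 0.0256 CPM (-8.28 ± 0.27, adjusted p = 9.2e-11). Zfp462 had 666 counts and then 3, a ratio of 272 (92.8 to 1320). Far2, a fatty acyl reductase gene, held 42.2, 42.3 and 37.1 CPM and then 0.367, 0.429 and 0.384 CPM (-6.67 ± 0.13, adjusted p = 1.2e-12). Apln, the apelin gene, held 28.8, 10.9 and 10.2 CPM, the first library standing apart, and then 0.333, 0.123 and 0.102 CPM. Gng12, a G protein gamma subunit gene, fell from a mean of 10.6 to 0.139 CPM. In the STAT3 group 23 of the 38 genes with at most 3 counts under Y640F also had at most 3 counts. Among the 10 genes of the stricter cut, 7 were under 0.1 CPM in the STAT3 group too.

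The genes of some chromosomes were shifted as a whole. The median log2 fold change of the 1008 tested genes of chromosome 2 was 0.47, and 89.1% of them lay above 0. The 3 Y640F libraries stood at 0.47, 0.46 and 0.48 against the empty vector mean, the empty vector libraries between -0.01 and 0.01, and the STAT3 group at a median of 0.03. In consecutive blocks of 50 genes along chromosome 2 the median lay between 0.31 and 0.61 throughout. In the last 2 of its 20 blocks the STAT3 group stood at 0.48 and 0.46 as well. Chromosome 5 stood at 0.33 and chromosome 1 at -0.34. There the STAT3 group stood at 0.36 and -0.34, and on chromosome 1 the first empty vector library stood at 0.15 and the others at -0.06 and -0.09. Chromosome 19 stood at 0.24, with its first 3 blocks between -0.05 and 0.01 and its last 3 between 0.44 and 0.54, where the STAT3 group stood between 0.20 and 0.55. As whole chromosomes, every other autosome and the X chromosome lay between -0.08 and 0.01, but single blocks within them went further in both directions. The last block of chromosome 9, of 46 genes, stood at 0.24 with 12 genes higher and 1 lower, and the STAT3 group there at 0.04. The last 2 blocks of chromosome 11 stood at 0.17 and 0.23.

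Chromosome 13 as a whole stood at -0.07, but its last block of 47 genes (chr13:104228955-120304655, GRCm38) stood at -0.43, with 9 genes lower, where the STAT3 group stood at 0.04. Within it, Mtrex, an RNA helicase gene, held 201, 195 and 195 CPM with empty vector and 98.2, 96.7 and 99.0 CPM with Y640F (-1.01 ± 0.04, adjusted p = 2.3e-10). Dhx29, a translation factor gene, had -1.05, Ndufs4, a subunit gene of respiratory complex I, -1.12, and Nnt, a mitochondrial transhydrogenase gene, -1.09. These genes were picked after their values were seen.

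Chromosome 2 held 104 of the 576 higher calls (10.3% of its tested genes, against 4.54% of all) and chromosome 5 held 77 (8.87%), while chromosome 1 held 66 of the 462 lower calls (8.32%, against 3.64% of all). When each log2 fold change was taken relative to the median of its chromosome, 494 genes were higher and 434 lower, and 881 genes were called both ways. The higher calls on chromosome 2 then numbered 42 and on chromosome 5 38, and the lower calls on chromosome 1 numbered 44. In HPCLSK, the medians of Y640F against empty vector were 0 on chromosome 2, -0.01 on chromosome 5 and -0.04 on chromosome 1. The number of copies of these chromosomes was not measured.

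**Figure D4:**
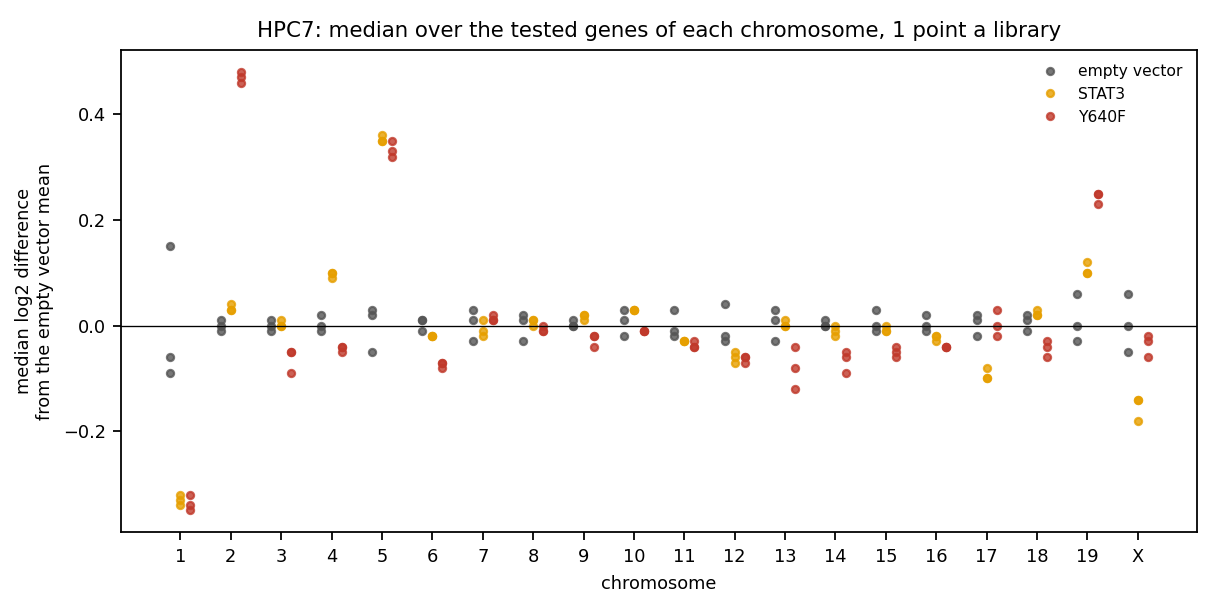
Median log2 difference from the mean of the empty vector libraries over the tested genes of each chromosome, with 1 point for each of the 9 HPC7 libraries (empty vector grey, STAT3 orange, Y640F red). The Y640F points on chromosome 2 lie at 0.46 to 0.48 with the other groups near 0, and Y640F and STAT3 lie together on chromosomes 1 and 5.

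Y640F was also set directly against unmutated STAT3 in HPC7. The mutant group held less Stat3 RNA than the STAT3 group (-0.56 ± 0.04, adjusted p = 8.9e-08), so residue and RNA level differed together. Of 12683 genes, 782 were higher with Y640F than with STAT3 (6.17%) and 219 lower (1.73%), together 7.89%. Since both comparisons share the Y640F libraries, the calls of each are given side by side. Of the 576 genes higher with Y640F than with empty vector, 314 were also higher than with STAT3, 4 were lower and 258 were not called. Of the 462 lower genes, 127 were also lower than with STAT3, 44 were higher and 291 were not called.

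Many interferon-stimulated genes differed between the forms. Of 40 tested, 29 were higher with Y640F than with STAT3 and none was lower, with a median of 2.19. With STAT3 the median against empty vector was -0.75. Ifitm3 held 0.649, 0.380 and 0.270 CPM with STAT3, under all empty vector libraries, and was 7.07 ± 0.27 higher on the log2 scale with Y640F (adjusted p = 2.1e-10). Xaf1, an interferon-induced pro-apoptotic gene, stood at means of 8.41 CPM with empty vector, 0.704 CPM with STAT3 and 30.2 CPM with Y640F. Of the STAT3 targets and feedback genes, 10 of 31 were higher with Y640F than with STAT3 and 2, the cyclin genes Ccnd1 and Ccnd2, were lower. Socs3 held 1.79, 1.77 and 1.48 CPM with STAT3, and Y640F was 3.25 ± 0.11 higher (adjusted p = 9.5e-11). Pim1 held 51.0, 54.2 and 50.5 CPM with STAT3, Bcl3 a mean of 1.02 CPM and Pim2 a mean of 25.3 CPM, each below its empty vector libraries. Cish was not called, at a mean of 12.2 CPM with STAT3 and 9.71 CPM with Y640F (-0.32 ± 0.09, adjusted p = 0.0090).

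The erythroid rise also set the forms apart, with 14 of 34 genes higher with Y640F than with STAT3 and 1 lower. Gata1 held a mean of 8.91 CPM with STAT3, within the range of the empty vector libraries, and was 1.58 ± 0.14 higher with Y640F (adjusted p = 6.6e-07). Csf2rb2 stood at 16.6 CPM with STAT3 and was 2.58 ± 0.09 higher with Y640F. Of the stress genes, 5 of 23 were higher with Y640F, among them Trib3 by 3.32 ± 0.14. Granulocyte genes did not follow this split, with 3 of 15 higher and 3 lower than with STAT3. Mpo stood at 272 CPM with STAT3, between the other means. Several losses showed no difference between the forms beyond their error. H2-K1 had a mean of 0.134 CPM with STAT3 and a difference of -1.65 ± 1.07 (adjusted p = 0.22), and Nlrc4 2.35 CPM with STAT3 and 2.34 CPM with Y640F. Cd34 fell with both forms, and further with STAT3. It held 42.8, 41.1 and 40.8 CPM with STAT3, below the Y640F libraries (2.25 ± 0.07, adjusted p = 3.0e-11). Angpt1 stood at 335 CPM with STAT3, above both other groups.

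The same vector pair in HPCLSK gave a separate set of libraries. All 9 HPC7 libraries came from 1 flow cell lane per the file headers, and the HPCLSK libraries from another flow cell, so line and flow cell cannot be told apart. In a fit of all 18 libraries over 13891 genes, HPC7 had 544 genes higher (3.92%) and 542 lower (3.90%) with Y640F, together 7.82%, and HPCLSK had 1330 higher (9.57%) and 958 lower (6.90%). The lines shared 136 of the higher genes, 25% of those of HPC7 and 10.2% of those of HPCLSK. They shared 102 of the lower genes, 18.8% and 10.6%. Of the HPC7 calls, 63 higher genes were lower in HPCLSK and 100 lower genes were higher there. The difference between the lines itself was called for 2082 genes (15.0%), 1075 with a higher log2 fold change in HPCLSK (7.74%) and 1007 with a lower one (7.25%). It was called for 273 of the 544 and 315 of the 542 HPC7 genes. The same HPC7 libraries chose these genes and entered this test, so these counts cannot be set against the 15.0% of all genes.

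Among the genes shared were members of the main lists. Ifitm1 had log2 fold changes of 3.28 ± 0.20 in HPC7 and 4.0 ± 0.13 in HPCLSK, with a difference of 0.72 ± 0.27 under the fold minimum. Ly6a had 3.18 ± 0.21 and 3.67 ± 0.17, Csf2rb 1.34 ± 0.05 and 1.55 ± 0.05, Socs3 2.32 ± 0.15 and 2.79 ± 0.11, and Angpt1 -1.84 ± 0.14 and -2.48 ± 0.14. The differences for these 4 genes were under the fold minimum too. Oas3 rose in both lines but by 3.04 ± 0.38 less in HPCLSK (adjusted p = 2.3e-06), where it started from 7.64 CPM instead of 0.849 CPM. For interferon-stimulated genes the difference was called lower in HPCLSK for 16 of 40 and higher for 1, against 7.25% and 7.74% of all genes.

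Other HPC7 changes differed in HPCLSK. H2-K1 stood at 475 ± 11.1 CPM with empty vector and 998 ± 67.8 CPM with Y640F in HPCLSK (SD, n = 3), a log2 fold change of 1.07 ± 0.11. Pycard had -0.01 ± 0.15 and Cxcr4 -0.41 ± 0.15 there, against -8.81 ± 0.42 and -7.75 ± 0.59 in HPC7, and both differences were called. Cebpa, at 125 CPM with empty vector in HPCLSK, had -0.18 ± 0.14, and the difference of 2.53 ± 0.34 was called (adjusted p = 5.6e-06). Gata1 had -0.81 ± 0.44 in HPCLSK, at 2.79 CPM with empty vector, and the difference of -2.18 ± 0.50 was called (adjusted p = 0.0013). Of 31 erythroid genes tested in this fit, the difference was called lower in HPCLSK for 5 and higher for 1. For granulocyte genes it was called higher for 12 of 15. Over all 13891 genes the difference was called lower for 7.25% and higher for 7.74%, together 15.0%. Itga9 and Far2 fell in both lines, with -5.08 ± 0.27 and -6.68 ± 0.24 in HPC7 and -7.32 ± 0.36 and -3.48 ± 0.14 in HPCLSK.

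**Figure D5:**
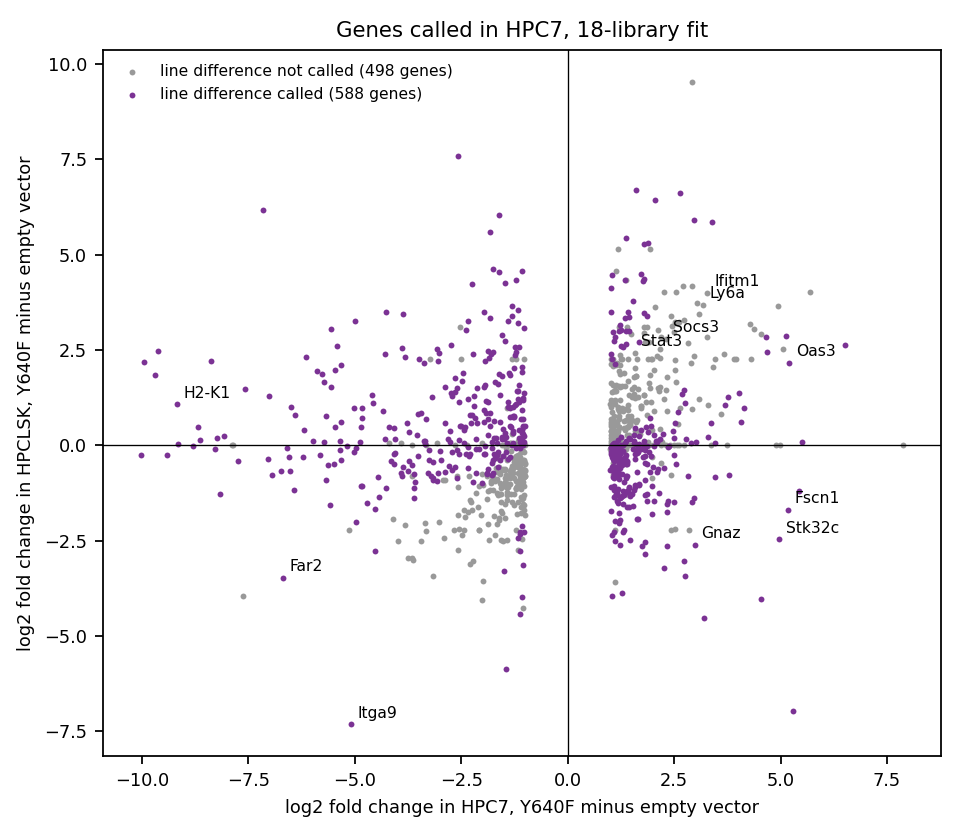
Log2 fold change of Y640F against empty vector in HPC7 (horizontal) and HPCLSK (vertical) for the 1086 genes called in HPC7 in the 18-library fit, with genes whose line difference was called in purple and the others in grey. Ifitm1, Ly6a and Socs3 lie high in both lines, Itga9 and Far2 lie low in both, and H2-K1 and Fscn1 lie on opposite sides of 0.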

How the data were processed

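RNA of 18 libraries was measured, and the HPC7 libraries are described here. The deposited values are raw counts per gene without any scaling. Per the file headers, featureCounts 1.5.1 was run with strand setting 2 over GENCODE M13 exons. Per the submitters' processing notes, STAR and Trimmomatic were used on GRCm38. The series text names another library kit than the labels' protocols, and gives single-end reads of 50 bases. All 50686 genes held whole counts (0 exceptions), and symbols were matched by gene ID, 45737 with and 4639 without the version, 310 having none.

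The 9 HPC7 libraries were fitted together (6 residual degrees of freedom) with edgeR 4.0.16 under R 4.3.3: filterByExpr, TMM, the quasi-likelihood test and Benjamini-Hochberg adjustment over all tested genes. A gene was called where the adjusted p was below 0.05 and the log2 fold change reached 1 in either direction. The line difference used all 18 libraries. CPM are TMM-scaled, and the error given after a log2 fold change is its SE. With 0 counts in a group a fold is a lower bound against 3 counts over the group, and with 1 to 3 counts a ratio has a 95% exact binomial interval, both for counting error only. The scripts were tested on simulated counts.

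The members, the 34 gene lists and the tests were chosen with earlier results of these data known. Named genes are Stat3, Socs3, Pim1, Bcl3 and Cish, the 12 largest and 12 smallest called changes (official-style symbol, 5 CPM in the higher group, no overlap), up to 3 called members per list (1 CPM or more where higher), and the 6 largest and 6 smallest line differences among HPC7 calls of 5 CPM in 1 group. Results for some of these genes are not reported here. Other named genes are list members or examples chosen after their values were seen. Alternatives were other scalings, filters, tests and sample sets, DESeq2 1.42.0, a replicate block and each library left out.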

Additional observations from a re-analysis of the deposited data

Results flagged for a closer look

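The response to Y640F was compared between HPCLSK and HPC7 for the 5 genes named in every comparison and for genes among the 6 largest and 6 smallest differences among HPC7 calls. A gene is given here where the test of the difference itself passed an adjusted p of 0.05 and a fold of 2 (edgeR's quasi-likelihood test over 18 libraries). Line and flow cell cannot be told apart, and fitted values against a group at or near 0 depend on the prior count.

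Of those 5 genes, Cish differed, with a log2 difference (HPCLSK minus HPC7) of -1.5. It rose in HPC7 and stood at 4.89 CPM with empty vector and 3.68 CPM with Y640F in HPCLSK. The largest positive differences were 12.12 for Laptm4b, 12.08 for Ppic, 11.52 for Mier2, 10.25 for H2-K1, 9.78 for Zfp770 and 9.22 for S100a8. In HPC7 with Y640F each of these genes had at most 4 counts. In HPCLSK with Y640F, Laptm4b stood at 27.0 CPM, Ppic at 16.0 CPM, Mier2 at 13.5 CPM and Zfp770 at 15.7 CPM. S100a8, a neutrophil gene, stood at 0.391 CPM with empty vector in HPC7 and at 203 CPM in HPCLSK.

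Negative differences were -7.44 for Stk32c, -6.87 for Fscn1, -6.18 for Frmpd1, -5.59 for Gnaz and -5.41 for Rtp4. Frmpd1 fell from 6.26 to 0.590 CPM and Gnaz from 0.679 to 0.0932 CPM in HPCLSK, and both rose in HPC7. Rtp4 stood at 7.33 and 8.01 CPM in HPCLSK. Fscn1 and Stk32c were under 0.2 CPM in both HPCLSK groups, and the Stk32c difference lost its call without the first HPCLSK empty vector library (-5.26, adjusted p = 0.12) or without that and the first HPCLSK Y640F library, an alternative chosen after seeing the data (-4.85, adjusted p = 0.17).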

How the results depend on the processing

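The counts of genes called with Y640F against empty vector, 576 higher and 462 lower, moved by over 1.5 times under 3 settings. They were 245 and 170 with at least 5 CPM in 3 libraries, where fewer genes were tested, 241 and 246 with a test against the fold minimum itself (glmTreat), and 3742 and 3521 by the adjusted p alone. DESeq2 gave 559 and 508, and no low-count filter 715 and 620. Leaving out 1 library at a time gave 567 to 614 higher and 475 to 488 lower. Against STAT3 the leave-one-out counts were 766 to 797 and 213 to 241, and for the line difference 1000 to 1090 and 941 to 1056, the lowest of both without 2 HPCLSK libraries, a setting chosen after seeing the data. Replicate numbers did not pair the samples, since deviations of same-numbered HPC7 libraries correlated at -0.1 to 0.06. With the replicate number as a block the counts were 575 and 460, against STAT3 780 and 222, and for the line difference 1045 and 993. Of the 93 named genes none reversed under any alternative run that gave it a value, and 23 lost the call under at least 1, 19 of them under glmTreat, added for single genes after seeing the data, and 11 under others, S100a8 among them in the 18-library fit (adjusted p = 0.12). At 5 CPM in 3 libraries 33 of the 93 were not tested. The cause was not tested. Genes under 1 CPM rest on few counts per library.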

Other observations

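Some abundant genes outside the lists were also called with Y640F and are given here as values, chosen after their values were seen. Prnp, the prion protein gene, held 27.7, 19.4 and 19.6 CPM with empty vector and 95.7, 109.5 and 100.3 CPM with Y640F (log2 fold change 2.20 ± 0.10, adjusted p = 1.5e-09). Phf19, the gene of a Polycomb-associated protein, rose from a mean of 22.1 to 74.1 CPM. Both lie on chromosome 2. On other chromosomes, Sgpl1, the sphingosine phosphate lyase gene, rose from a mean of 42.9 to 143 CPM, and Rap2a, a small GTPase gene, from 43.7 to 140 CPM, with STAT3 means of 106 and 83.5 CPM between them.

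Chd3, the gene of a chromatin remodeller of the NuRD complex, fell from 139, 144 and 127 CPM to 13.5, 14.4 and 15.5 CPM (-3.23 ± 0.06, adjusted p = 1.2e-12), and the STAT3 libraries were lower still at a mean of 2.94 CPM. Pgrmc1, a haem-binding membrane protein gene, fell from a mean of 75.0 to 5.73 CPM. Lsp1, the gene of a leukocyte actin-binding protein, fell from a mean of 94.0 to 18.7 CPM. Gyg, the glycogenin gene, held means of 298 CPM with empty vector, 128 CPM with STAT3 and 128 CPM with Y640F. Akap13 and Cdh17 stood higher with STAT3 than with empty vector and lower with Y640F, at means of 426, 553 and 201 CPM for Akap13 and of 291, 582 and 141 CPM for Cdh17.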
